A study of Ovis aries with 3 samples.

Results

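Early myeloid cells are the first macrophage-related cells of an embryo. They were picked from single-cell RNA libraries of whole sheep embryos by 4 genes: *C1QB* and *C1QC*, which encode chains of the complement starter C1q, *CSF1R*, the receptor for the macrophage growth factor CSF-1, and *TYROBP*, an adaptor of immune receptors. A cell was a member when it held at least 1 unique molecular identifier (UMI, 1 counted RNA molecule) of at least 2 of these genes and was not a red blood cell, which here means not having both at least 5 *AHSP* and at least 2 *ALAS2* UMIs. A cell was kept when it had 1000 to 30000 UMIs, 200 to 6000 genes and no more than 10% of its UMIs on mitochondrial genes. In total, 58 of 31576 kept cells were members, or 0.184% (exact binomial 95% interval 0.140 to 0.237%).

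The 3 libraries came from Hulunbuir short-tailed sheep at embryonic day 19 (E19 HSTS), Hu sheep at day 19 (E19 HS) and Hu sheep at day 16 (E16 HS). The short-tailed sheep carry a mutation in the *T* gene (Brachyury) and Hu sheep have the wild-type allele. Untreated whole embryos were dissociated with collagenase, and red blood cell lysis was part of the preparation. Each condition had 1 library, and the label of each names 1 embryo, although the study's methods give 3 embryos for E16 HS. Day, breed, genotype, embryo and library therefore cannot be told apart, no test was run, and every interval covers counting error only. The same genes chose the cells and describe them, so values against other cells are a description.

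In a mammalian embryo, the first macrophages arise from yolk sac progenitors and enter the tissues with the early circulation, before blood stem cells form. They clear dying cells, sense microbes and tissue damage through receptors that signal by adaptors such as *TYROBP* and *FCER1G*, and digest what they take up in lysosomes. Their C1q is a complement protein that they make themselves. Interferon-stimulated genes are a group that cells switch on when interferons bind their receptors, and many of them act against viruses. In sheep, the trophoblast of the conceptus secretes interferon tau around the time of implantation.

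E19 HS held most of these cells, with 33 members among 10629 kept cells (0.310%, 0.214 to 0.436%). In E19 HSTS there were 14 among 9618 (0.146%, 0.0796 to 0.244%), and in E16 HS there were 11 among 11329 (0.0971%, 0.0485 to 0.174%). The intervals of E19 HS and E16 HS did not overlap, while those of both day 19 libraries did. With a stricter filter (500 to 6000 genes and under 5% mitochondrial UMIs) the intervals of E19 HS (0.166 to 0.384%) and E16 HS (0.0543 to 0.194%) overlapped. With cells thinned to 3000 UMIs, 22 members were left in E19 HS (0.237%), 10 in E19 HSTS (0.117%) and 3 in E16 HS (0.0300%). Members of E16 HS were the deepest, with a median of 11665 UMIs against 9044 in the other kept cells. The medians were 5881 against 6904 UMIs for E19 HS and 6140 against 8679 for E19 HSTS. Members held 121906 UMIs in E16 HS, 212997 in E19 HS and 92821 in E19 HSTS. Levels are given as CPM (counts per 1e6 UMIs), and 1 UMI stood for 8.20, 4.70 and 10.8 CPM in that order. Of the 58 members, 9 had under 1% mitochondrial UMIs, and the deepest of these held 2629 UMIs. No member's barcode occurred in another library, although 38 to 42 barcodes were shared between pairs of libraries.

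The genes that met the rule differed between the libraries. E16 HS members held 16 UMIs of *C1QB*, 2 of *C1QC*, 9 of *CSF1R* and 90 of *TYROBP*, and 5 of the 11 cells qualified by *TYROBP* and *CSF1R* alone. E19 HS members held 223, 166, 17 and 248 UMIs of the same genes, and 2 of 33 cells qualified without *C1QB* and *C1QC*. E19 HSTS members held 136, 73, 10 and 98, and 2 of 14 qualified without them.

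Several myeloid genes outside the rule separated members from the cells just below its threshold, but *LAPTM5* and *CD68* did not do so clearly. *FCER1G*, the signalling chain of Fc receptors, was detected in 2.28% of the 25846 cells with 0 rule genes, 24.2% of the 62 cells with 1, 85.7% of the 21 with 2, 91.3% of the 23 with 3 and all 14 with 4. *CTSS*, a lysosomal protease of antigen-presenting cells, followed with 0.364%, 21.0%, 81.0%, 87.0% and 100%. *AIF1*, an actin-binding protein of macrophages also called IBA1, was found in 0.522%, 19.4%, 71.4%, 91.3% and 100% of these cells. *CD53*, *PTPRC* and *ALOX5AP* were each found in 11.3% of the cells with 1 rule gene. With 2 rule genes they were found in 47.6%, 47.6% and 33.3%. *LAPTM5* was found in 6.45% of the cells with 1 rule gene, 0% with 2 and 7.14% with 4. *CD68* was found in 3.23%, 4.76% and 35.7% of the same cells. At least 2 of *C1QA*, *FCER1G*, *AIF1* and *CTSS* were present in 22.6% of the cells with 1 rule gene and in 90.5% of those with 2, against 0.0713% of 5610 erythroid cells. Some cells with 1 rule gene thus carried further myeloid genes and were left out.

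**Figure D1:**
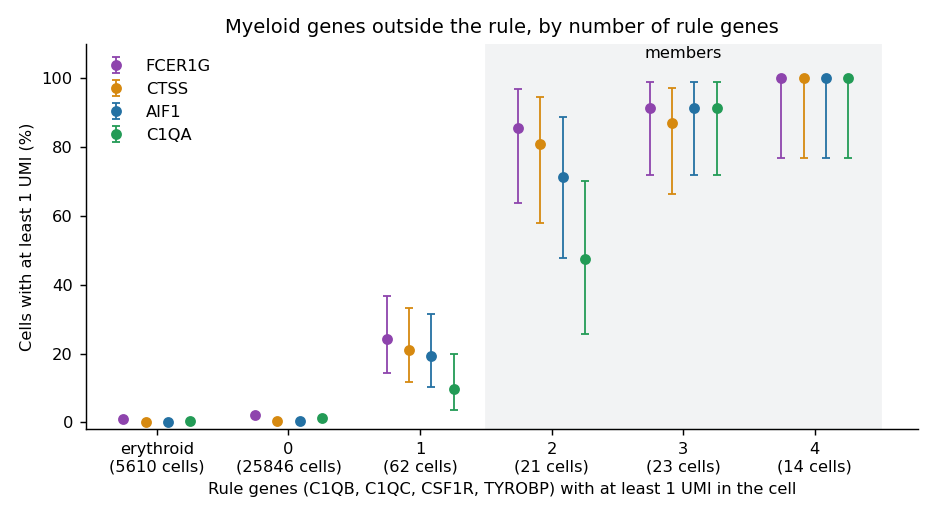
Share of kept cells with at least 1 UMI of *FCER1G*, *CTSS*, *AIF1* or *C1QA* (y axis, percent) by the number of rule genes in the cell (x axis, with erythroid cells at the left), over all 3 libraries. Points are shares and bars exact binomial 95% intervals, and the shaded cells are the members. *FCER1G* climbs from 2.28% at 0 rule genes to 24.2% at 1 and 85.7% at 2.

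Of 3524 genes with a mean level of at least 20 CPM, 147 (4.17%) were more than 4-fold higher in members than in the other kept cells of every library, and 39 (1.11%) were more than 4-fold lower. The median ratio over all 3524 genes was 1.11. TMM scaling moved the median log2 ratio by -0.43 in E16 HS, -0.46 in E19 HS and -0.61 in E19 HSTS, and 119 genes were then higher and 63 lower. All 14 considered genes of the myeloid signalling and oxidase list were among the higher ones, with a median ratio of 308. In other cells the whole list summed to only 69.5 CPM (E16 HS), 66.1 CPM (E19 HS) and 46.7 CPM (E19 HSTS). Most of its genes could thus reach the mean of 20 CPM only through the members. The count and the median ratio were therefore largely set by the filter. *FCER1G* stood at 1234 CPM in members and 4.16 in other cells, and it was found in 53 of 58 members. *AIF1* stood at 982 CPM against 0.794, and *CORO1A*, an actin regulator of white blood cells, at 526 against 6.39. *FCER1G* was not limited to members. Endothelial cells, taken by at least 2 of *KDR*, *PLVAP*, *CDH5* and *TIE1*, held 18.4 CPM (E16 HS), 75.6 CPM (E19 HS) and 88.4 CPM (E19 HSTS) of it. It was detected in 9.68%, 27.3% and 30.4% of these endothelial cells, respectively. *PTPRC*, the common white blood cell antigen CD45, had 53 UMIs in 25 members. Parts of the phagocyte NADPH oxidase, which makes microbe-killing oxygen radicals, were present as *CYBA* with 228 UMIs, *NCF4* with 48 and *NCF1* with 36. 1 of the 33 E19 HS members held no UMI of the 25 genes of this list that had a symbol in the table.

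The 20 genes that ranked highest by their lowest ratio over the libraries were *CXCL10*, *ALOX5AP*, *IFI44*, *CD53*, *CTSS*, *PSTPIP1*, *FYB1*, *PTPRC*, *CFP*, *LY96*, *PSMB8*, *AIF1*, *MX2*, *BIN2*, *RETN*, *FCER1G*, *PYCARD*, *EPSTI1*, *DOCK8* and *CLEC3B*. *ALOX5AP*, needed to make leukotrienes, had 58 UMIs in 21 members and a pooled ratio of 2722 (1523 to 5172). *CFP* encodes properdin, a complement stabiliser, and had 85 UMIs in 41 members. *LY96*, a partner of the lipopolysaccharide receptor, had 52 UMIs in 30 members, and *PYCARD*, the inflammasome adaptor, had 298 in 47. *RETN*, which encodes resistin, had 85 UMIs in 32 members. *CLEC3B*, which encodes tetranectin, had 412 UMIs in 52 members, at 963 CPM against 5.40 in other cells. Endothelial cells shared *CLEC3B*, at 29.2 CPM (E16 HS), 327 CPM (E19 HS) and 321 CPM (E19 HSTS). The gene was detected in 10.8%, 57.4% and 58.9% of those cells, respectively.

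**Figure D2:**
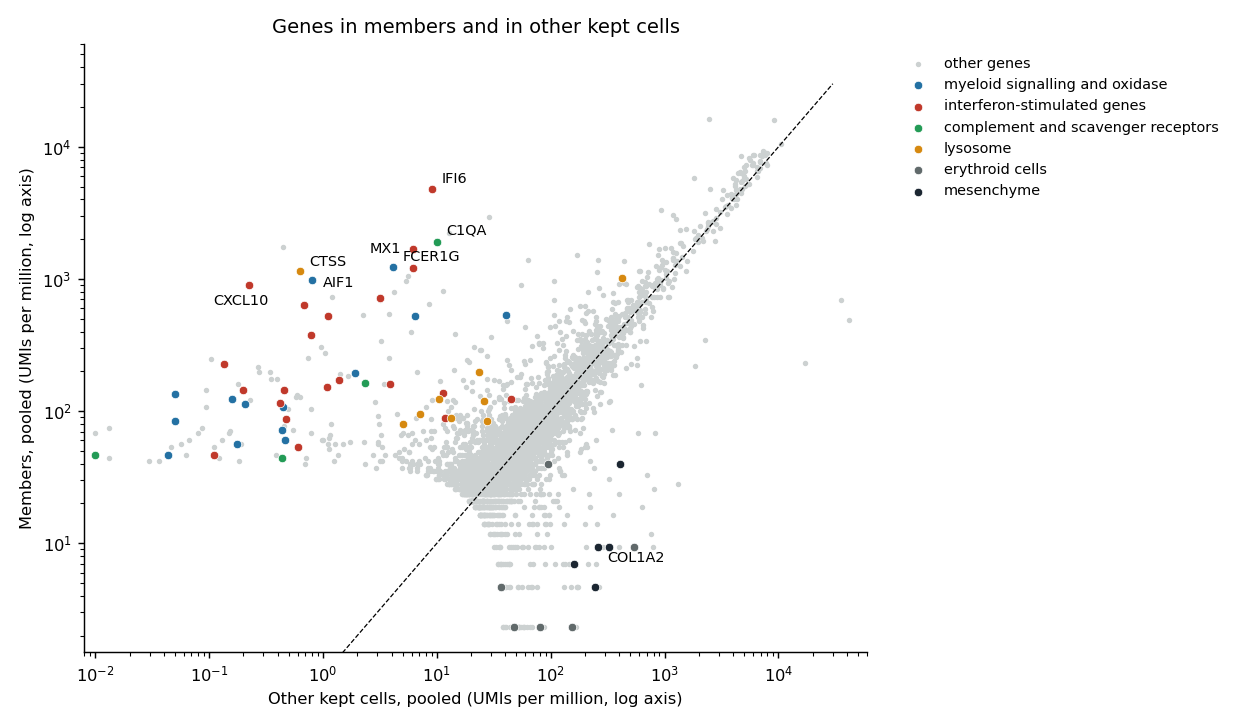
Level of each considered gene in the pooled members (y axis) and in the pooled other kept cells (x axis), both in CPM on log axes. Each point is a gene, gene lists are coloured, the dashed line marks equal levels, and genes without a UMI in members are not drawn. Myeloid and interferon-stimulated genes lie far above the line, such as *CTSS* at 1150 against 0.634 CPM, while collagens lie below it.

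Complement and scavenger genes were present next. Of 4 considered genes, *C1QA*, *STAB1* and *CD36* were among the higher ones, against 4.17% of all considered genes. *C1QA*, the remaining chain of C1q, had 819 UMIs in 45 members. *STAB1*, a scavenger receptor of tissue macrophages, had 70 UMIs in 29 members, and *CD36*, a receptor for lipids, had 19 in 16. The Fc receptor *FCGR3A* had 20 UMIs in 10 members of both day 19 libraries and none in E16 HS. There the exact interval of a sum of 0 reaches 30.3 CPM. Several textbook macrophage genes were scarce. *CD68* had 14 UMIs in 10 members, *CD163* had 7 in 6, *TREM2* had 4 in 4, *CX3CR1* had 4 in 4 and *CD14* had 2 in 2. *LAPTM5* had 4 UMIs in 4 members and *SPI1*, the master regulator of myeloid cells, had 2 UMIs, both in E19 HS. *MSR1* and *MERTK* were at 0, and *MRC1* was not listed by symbol.

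Among myeloid transcription factors, 4 of 7 considered genes were higher, against 4.17% of all considered genes. They were *TFEC* with 31 UMIs, *KLF2* with 23, *MEF2C* with 18 and *MITF* with 17. The list was not particular to members. It summed to 1173 CPM in endothelial cells against 587 in members of E19 HS, and to 755 against 427 in E16 HS. In E19 HSTS it was 920 against 980. Against the same 4.17% of all considered genes, lysosome genes were higher for 4 of 9, with a median ratio of 8.30. They were *CTSS*, *CTSC* with 53 UMIs, *PSAP* with 41 and *CTSZ* with 34. Antigen presentation was led by *B2M*, the light chain of MHC class I, which is listed under 2 identifiers with 1265 and 276 UMIs and ratios of 103 and 75.8. The MHC class II regulator *CIITA* and the costimulatory genes *CD80* and *CD40* were at 0.

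Markers of most other cell types were low. Erythroid genes summed to 42.3 to 115 CPM in members of the 3 libraries, with 4 UMIs of *AHSP* and 1 of *ALAS2*. Of 14 endothelial genes, 11 were at 0, among them *KDR*, *CDH5* and *TIE1*, while *PLVAP* had 33 UMIs in 16 members and *PECAM1* had 18 in 14. The endothelial list summed to 291 CPM in E19 HSTS members against 59.0 in other cells, and to 73.8 against 29.55 in E16 HS. In E19 HS it was 79.8 against 90.4. Endothelial cells held 2511 CPM in E19 HSTS, 1288 in E16 HS and 2795 in E19 HS. Mast cell and basophil genes were at 0, lymphoid genes had 2 UMIs and megakaryocyte genes had 3. Mesenchyme genes summed to 197 CPM in E16 HS, 37.6 in E19 HS and 10.8 in E19 HSTS, and their part in the day comparison was not tested. Of the progenitor genes, *KIT* had 4 UMIs in 2 members, *MYB* had 4 in 3 and *CD34* had 3 in 3, while *GATA2* was at 0.

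The interferon-stimulated genes stood out within the members. This list of 50 genes, 34 of them in the table, was written after values had been seen. Of 21 considered genes, 12 were more than 4-fold higher in members than in other cells of every library, with a median ratio of 274 over the 21. The share over all considered genes was 4.17%. Here too, a gene rare in other cells was considered only if it was high in members. *IFI6*, a protein of mitochondria and endoplasmic reticulum that interferons induce, had 2066 UMIs in 46 members and stood at 4830 CPM against 9.09 in other cells. *MX1*, a GTPase that blocks viruses, stood at 1688 against 6.17 CPM, and *ISG15*, a ubiquitin-like modifier, at 1209 against 6.17. *CXCL10*, a chemokine, stood at 903 against 0.226 CPM. The genes for interferon receptors were modest by comparison. *IFNGR1* had 34 UMIs in 25 members, *IFNGR2* had 95 in 40 and *IFNAR1* had 8 in 5, and *IFNAR2* was at 0.

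These genes divided most of the members by day, though less so in cells taken by other genes, as given below. Summed over the list, E16 HS members held 151 UMIs, or 1239 CPM (1049 to 1453), E19 HS members 3736 UMIs, or 17540 CPM (16982 to 18112), and E19 HSTS members 1545 UMIs, or 16645 CPM (15825 to 17496). The level was thus 14.2-fold higher in E19 HS than in E16 HS (12.03 to 16.8), and 7.33-fold (4.86 to 11.6) with cells thinned to 3000 UMIs, where 3 E16 HS members were left. Per cell, the summed level ran from 2.65 to 35.8 UMIs per 10000 with a median of 9.07 in E16 HS, from 3.65 to 477 with a median of 140 in E19 HS, and from 30.5 to 404 with a median of 145 in E19 HSTS. In all, 29 of 33 E19 HS members and 13 of 14 E19 HSTS members lay above the highest E16 HS member. Among the 4 E19 HS members at or below it, *FCER1G* and *CTSS* were each detected in 1, *C1QA* in 3 and *TOP2A* in 2. These 4 cells held 1006 to 13336 UMIs, and 2 had under 1% mitochondrial UMIs. The 1 E19 HSTS member at or below it held 4919 UMIs, with *FCER1G* and *CTSS* but without *C1QA*.

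**Figure D3:**
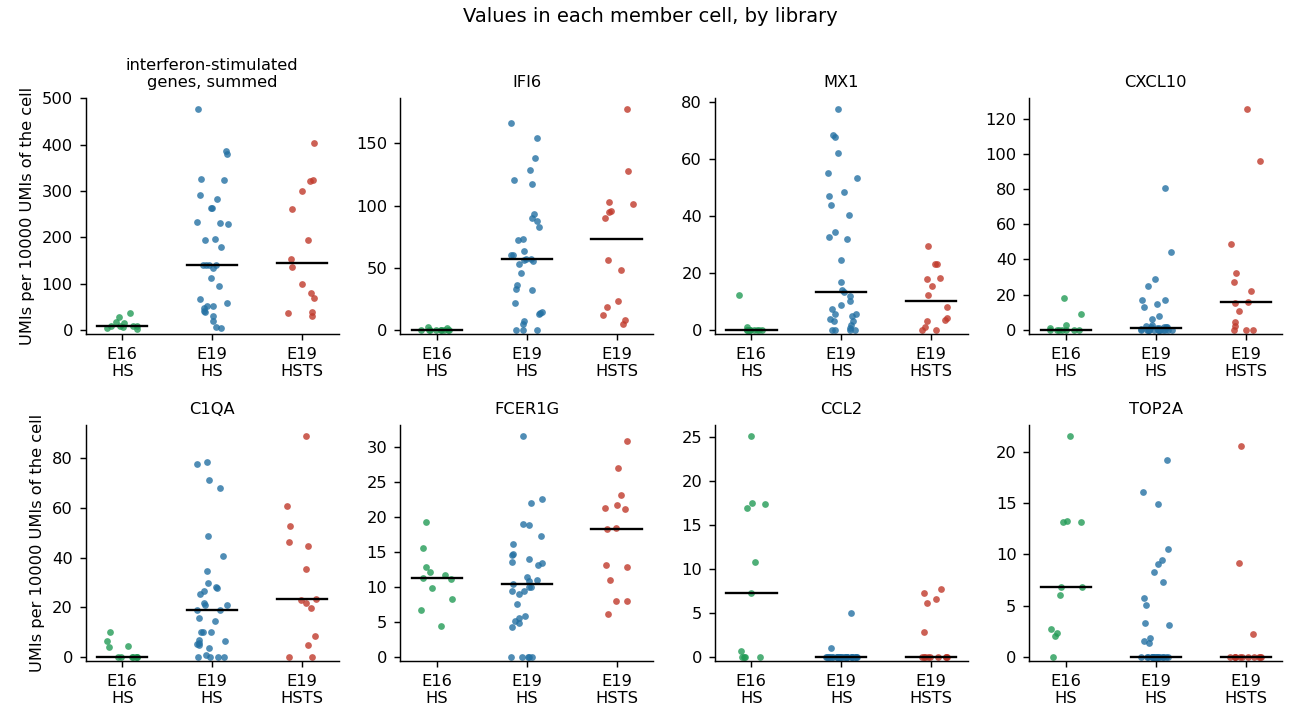
UMIs per 10000 UMIs of the cell (y axis) for each member (points) in E16 HS, E19 HS and E19 HSTS (x axis), with medians as black lines, for the summed interferon-stimulated genes and 7 single genes. Interferon-stimulated genes and *C1QA* are low in E16 HS and high in most day 19 members, *FCER1G* has similar medians in both Hu sheep libraries, and *CCL2* is highest in E16 HS.

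For E16 HS against E19 HS, 3582 genes were considered. In E16 HS members, 247 genes (6.90%) were more than 2-fold higher and 179 (5.00%) more than 2-fold lower with an interval that did not hold 1. The median ratio over all these genes was 1.16. With TMM scaling, which moved the median log2 ratio by -0.25, 143 genes were higher and 254 lower, so the balance of the directions depended on the scaling. Among the interferon-stimulated genes, 21 of 24 were lower in E16 HS and 22 of 24 with TMM scaling. The filter took the mean of both libraries, so a gene under 20 CPM in E16 HS was considered only if above it in E19 HS. The list was also written after values had been seen, so this count is a description only. Their median fold was 6.58 in members and 2.56 for the same genes in other cells, and it was 0.859 over all genes in members. *PSMB8*, *UBA7* and *OAS2* were the 3 genes not called.

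*IFI6* had 4 UMIs in 2 of 11 E16 HS members, 1381 UMIs in 30 of 33 E19 HS members and 681 in all 14 E19 HSTS members. Its level in E19 HS was 198-fold that in E16 HS (77.0 to 726), and 33.3-fold (9.18 to 276) with thinned cells. In other cells *IFI6* was also higher in E19 HS, by 12.4-fold. *MX2*, a relative of *MX1*, had 4 UMIs in 1 E16 HS member and 246 in 24 E19 HS members, a 35.2-fold difference (13.6 to 130), and the difference in other cells was 13.8-fold. *ISG15* had 9 UMIs in 1 E16 HS member and 382 in 27 E19 HS members, a 24.3-fold difference (12.7 to 53.5). In other cells the *ISG15* difference was 9.10-fold. *PLAC8*, of the same list, had 0 UMIs in E16 HS and 222 in 20 E19 HS members, which is 42.4-fold higher with the 0 set to a floor of 3 counts and at least 34.2-fold by the exact interval, but in other cells it was lower in E19 HS, at 0.598 of the E16 HS level. *MX1* had 17 UMIs in E16 HS, of which 16 were in 1 cell. Its fold of 20.3 (12.6 to 35.0) became 275 (49.2 to 10890) with the member richest in *MX1* left out of each library. It was lower under other choices, at 5.66 (3.45 to 9.995) with 3 rule genes required, 7.32 (2.46 to 35.9) with thinned cells and 9.25 with 2 UMIs of a rule gene required.

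Summed over the list, the difference between the days was smaller outside the members. The summed list was 1.57-fold higher in E19 HS than in E16 HS in other kept cells (154 against 98.3 CPM), 1.23-fold in erythroid cells (90.7 against 74.0) and 3.02-fold in endothelial cells (474 against 157). Single genes varied around these sums. *IFI6* was 32.3-fold higher in E19 HS endothelial cells (8.78 to 269.5) and 5.24-fold in erythroid cells. *ISG15* was at least 11.5-fold higher in endothelial cells by the exact interval, and 5.11-fold in erythroid cells. *MX2* had 9 UMIs in E19 HS endothelial cells and 0 in those of E16 HS. *PLAC8* was 2.09-fold higher in endothelial cells (0.846 to 6.20). Endothelial cells were those with at least 2 of *KDR*, *PLVAP*, *CDH5* and *TIE1*, 249 in E19 HS and 93 in E16 HS. Genes that respond to dissociation and heat differed in the same direction. In E16 HS members 6 of 8 were lower, against 5.00% of all considered genes, such as *FOS* with 7 UMIs against 216. These stress genes summed to 1936 CPM in E16 HS, 4624 in E19 HS and 7649 in E19 HSTS. Their part in the interferon result was not tested.

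**Figure D4:**
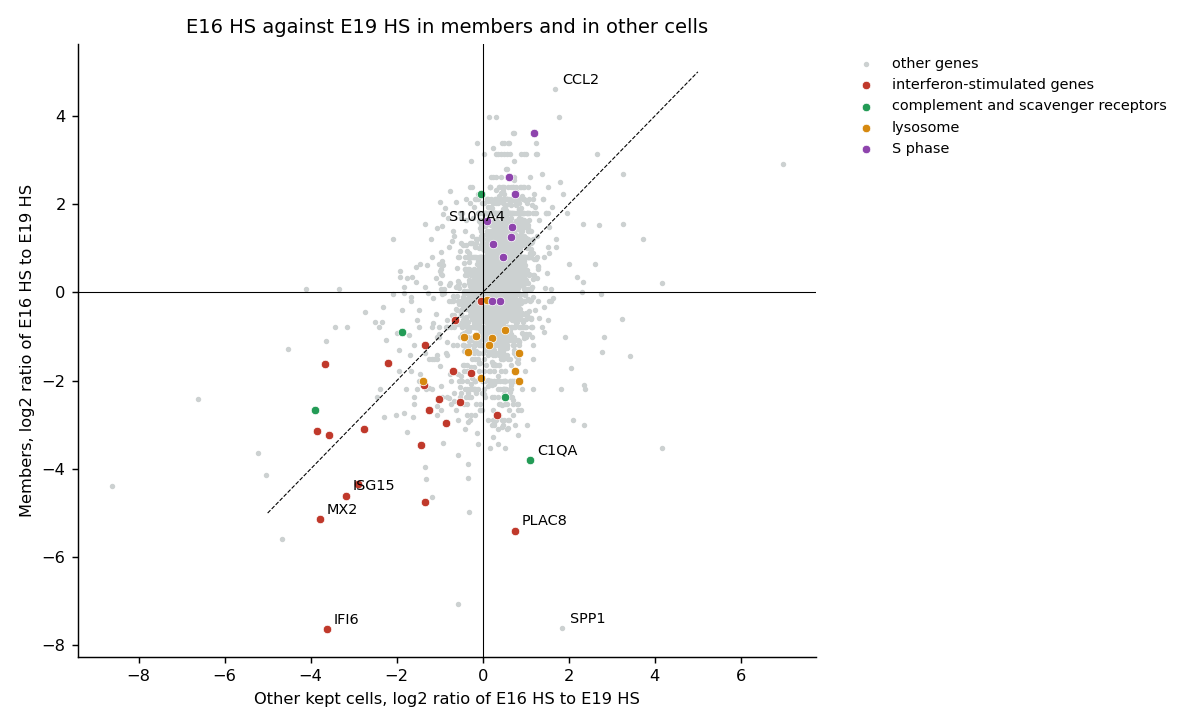
Log2 ratio of E16 HS to E19 HS in members (y axis) and in other kept cells (x axis) for the considered genes with a ratio in both, with 4 lists coloured and the dashed line at equal ratios. Most interferon-stimulated genes lie below 0 on the y axis and below the dashed line, and *C1QA*, *SPP1* and *PLAC8* lie below 0 in members and above 0 in other cells.

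*C1QA*, which was not in the rule, also differed between the days. *C1QA* had 22 UMIs in 4 of 11 E16 HS members, 534 in 29 of 33 E19 HS members and 263 in 12 of 14 E19 HSTS members. The level was 181 CPM (113 to 273) in E16 HS, 2507 (2299 to 2729) in E19 HS and 2833 (2501 to 3197) in E19 HSTS, which is 13.9-fold higher in E19 HS than in E16 HS (9.08 to 22.4). With cells thinned to 3000 UMIs the fold was 3.43 (1.71 to 8.05). It was 8.05 with 3 rule genes required and 7.62 with 2 UMIs of a rule gene required. As a description only, since *C1QB* and *C1QC* chose the cells, all 3 chains were detected together in 2 of 11 E16 HS members (18.2%, 2.28 to 51.8%), 25 of 33 E19 HS members (75.8%, 57.7 to 88.9%) and 9 of 14 E19 HSTS members (64.3%, 35.1 to 87.2%). Because *C1QB* and *C1QC* belong to the rule and were scarce in E16 HS, the rule itself took a different mix of cells from each day. Cells were therefore also taken by at least 2 of *TYROBP*, *FCER1G*, *AIF1* and *CTSS*, a choice made after the values were seen. It gave 27 cells in E16 HS, 53 in E19 HS and 25 in E19 HSTS, and these held *C1QA* in 14.8% (4.19 to 33.7%), 56.6% (42.3 to 70.2%) and 44.0% (24.4 to 65.1%) of cells. These cells included all 11 E16 HS members and 29 of 33 E19 HS members. They held 22 *C1QA* UMIs in E16 HS and 538 in E19 HS, against 22 and 534 in the members. The *C1QA* fold of 14.4 between E19 HS and E16 HS thus rests on nearly the same molecules and is no separate check. The interferon-stimulated genes differed 8.78-fold (7.78 to 9.93) in these overlapping cells.

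General myeloid genes followed that pattern less, and the myeloid signalling list, summed, was 1.31-fold higher in E19 HS (1.17 to 1.47). *FCER1G* had 140 UMIs in all 11 E16 HS members and 250 in 28 of 33 E19 HS members, a ratio of E19 HS to E16 HS of 1.02 (0.828 to 1.27). *CORO1A* had 73 and 107 UMIs and *CYBA* 62 and 111, and neither was called. Of 18 considered genes of the myeloid signalling list, 3 were lower in E16 HS, namely *AIF1* with 36 UMIs against 267, *NCF4* with 6 against 33 and *CYBB*. None was higher there. Over all considered genes, 5.00% were lower in E16 HS. Lysosome genes were lower in E16 HS for 4 of 12, namely *GRN*, *ASAH1*, *PSAP* and *CTSZ*, and for 7 of 12 with TMM scaling. Lipid and iron genes were lower for 5 of 9. Among them *FTH1*, the iron store ferritin heavy chain, had 1080 UMIs in E16 HS and 3803 in E19 HS, a 2.02-fold difference, against 1.01-fold in other cells. *B2M* was lower in E16 HS under both identifiers, by 6.85-fold and 3.07-fold.

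*SPP1*, which encodes the secreted protein osteopontin, was uneven among cells. It had 2 UMIs in E16 HS, 682 in 13 of 33 E19 HS members and 271 in 7 of 14 E19 HSTS members. A single E19 HS cell held 376 of the 682 UMIs. The fold of E19 HS over E16 HS was 195 (53.8 to 1615), but 54.0 (9.64 to 2138) with thinned cells and 48.7 with 3 rule genes required, where E16 HS was at 0 and set to the floor. In other cells *SPP1* was lower in E19 HS, at 0.277 of the E16 HS level.

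Higher in E16 HS members, in order of size, were *CCL2*, *HIST2H2AC*, *RPS6*, *S100A4* and *ATP5F1B*. *CCL2*, a chemokine that attracts monocytes, had 98 UMIs in 7 of 11 E16 HS members, 7 UMIs in 2 of 33 E19 HS members and 25 in 5 of 14 E19 HSTS members. Its level was 24.5-fold higher in E16 HS than in E19 HS (11.4 to 62.4), against 3.21-fold in other cells. With the member richest in *CCL2* left out of each library the fold was 120 (20.8 to 4814). *S100A4*, a calcium-binding protein of motile cells, had 221 UMIs in 10 of 11 E16 HS members and 136 in 20 of 33 E19 HS members, a ratio of 2.84 (2.28 to 3.54) that was 8.57 with 3 rule genes required, and in other cells it was lower in E16 HS, with a ratio of 0.520. *RPS6*, a ribosomal protein, had a ratio of 3.11 in members and 2.46 in other cells. *HIST2H2AC*, a histone gene, had 57 UMIs in 10 of 11 E16 HS members and 29 in 10 of 33 E19 HS members.

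Division genes were frequent in E16 HS members, and their summed S phase genes stood at the level of the other cells of that library. *TOP2A*, which untangles DNA before mitosis, was found in 10 of 11 E16 HS members, 15 of 33 E19 HS members and 3 of 14 E19 HSTS members. The E16 HS members were also deeper. Summed S phase genes stood at 976 CPM in E16 HS, 441 in E19 HS and 593 in E19 HSTS. Of 10, 4 were higher in E16 HS than in E19 HS (3 with TMM scaling), namely *MCM7*, *TYMS*, *CDC45* and *PCNA*. Over all considered genes, 6.90% were higher in E16 HS. In the other kept cells the S phase genes summed to 976 CPM in E16 HS, 727 in E19 HS and 756 in E19 HSTS. Of 12 G2 and M phase genes 0 were called. These summed to 1993 CPM in E16 HS members, 1634 in E19 HS and 1120 in E19 HSTS. In other cells they summed to 1779, 1353 and 1517 CPM, in the same order. At least 20 UMIs per 10000 of that list were held by 5 of 11 E16 HS members, 8 of 33 E19 HS members and 2 of 14 E19 HSTS members.

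Between both day 19 libraries, fewer genes were called in members than between the days. For E19 HSTS against E19 HS, 76 of 3497 genes (2.17%) were called higher and 79 (2.26%) lower, and the median ratio was 0.970. With cells thinned to 3000 UMIs, 38 genes were higher and 45 lower. Between E16 HS and E19 HS the thinned cells gave 52 higher and 27 lower, so this contrast was not kept. Summed interferon-stimulated genes had a ratio of 0.949 (0.894 to 1.01), with 2 of 26 genes higher and 2 lower. The side of 1 depended on the processing: the ratio was 1.25 (1.18 to 1.33) with 2 UMIs of a rule gene required, 0.852 (0.801 to 0.906) with the stricter filter and 0.826 (0.778 to 0.877) with the top 8% of doublet scores left out. Those higher in E19 HSTS were *CXCL10* and *CXCL9*, and those lower were *MX1* and *MX2*. *MX2* had 21 UMIs in 4 of 14 E19 HSTS members, 17 of them in 1 cell, and 246 in 24 of 33 E19 HS members, a 5.11-fold difference (3.27 to 8.40), which was 22.9 (8.83 to 84.9) with the cell richest in *MX2* left out of each library, 3.24 (2.06 to 5.36) with 3 rule genes required, and 2.36-fold in other cells. *CXCL10* was 3.39-fold higher in E19 HSTS (2.73 to 4.21), with 214 UMIs in 11 of 14 members against 145 in 19 of 33, and it was 5.07-fold higher in other cells. *CXCL9*, a related chemokine, had 5 UMIs in 4 E19 HSTS members and 0 in E19 HS, at least 2.10-fold higher by the exact interval.

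Stress-response genes were higher in E19 HSTS members for 4 of 9 (3 with TMM scaling), against 2.17% of all considered genes. *JUN* had 83 UMIs in 9 of 14 members against 62 in 19 of 33, a ratio of 3.07 (2.18 to 4.34) that was 1.00 in other cells. *DNAJB1*, a heat shock co-chaperone, had a ratio of 2.86 in members and 2.96 in other cells. *HSPA5*, a chaperone of the endoplasmic reticulum, had a ratio of 2.11 (1.60 to 2.78) in members and 1.09 in other cells. *PLVAP*, an endothelial diaphragm protein, had 20 UMIs in 7 E19 HSTS members against 8 in 5 E19 HS members, a ratio of 5.74, and *ID3*, an inhibitor of transcription factors, had 31 against 13, of which 16 were in 1 E19 HSTS cell. The part of endothelial RNA in these values was not tested, and *KDR*, *CDH5* and *TIE1* were at 0.

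*GAPDH* and *RPS6* differed between the libraries in members and in other cells alike. *GAPDH*, a glycolysis enzyme, had 2 UMIs in E19 HSTS members and 338 in 32 of 33 E19 HS members, a 73.7-fold difference, which was 324-fold in other cells. *RPS6* was 3.65-fold higher in E19 HSTS members and 2.95-fold higher in other cells. *AQP8*, a water channel, had 100 UMIs in 9 E19 HS members and 3 in 1 E19 HSTS member, 14.5-fold higher in E19 HS (4.83 to 71.6). *MDK*, the growth factor midkine, had 59 UMIs in 17 E19 HS members against 6 in 4 E19 HSTS members, a 4.29-fold difference that was 1.29-fold in other cells.

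A few day 19 members carried genes of monocytes and neutrophils. *S100A12*, an alarmin of these cells, had 109 UMIs in 3 E19 HS members and 8 in 1 E19 HSTS member, and *S100A8*, another alarmin, had 28 in 2 and 1 in 1. *S100A12* was 5.94-fold higher in E19 HS members than in E19 HSTS members, a value set by these few cells, and 115-fold higher in other cells. Both E19 HS members without any C1q chain held *S100A12* and *S100A8*, and 1 of the 2 E19 HSTS members without one did. The 5 E16 HS members without a C1q chain held 0 UMIs of either gene. The granule genes *MPO*, *ELANE* and *AZU1* were at 0 in every library.

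**Figure D5:**
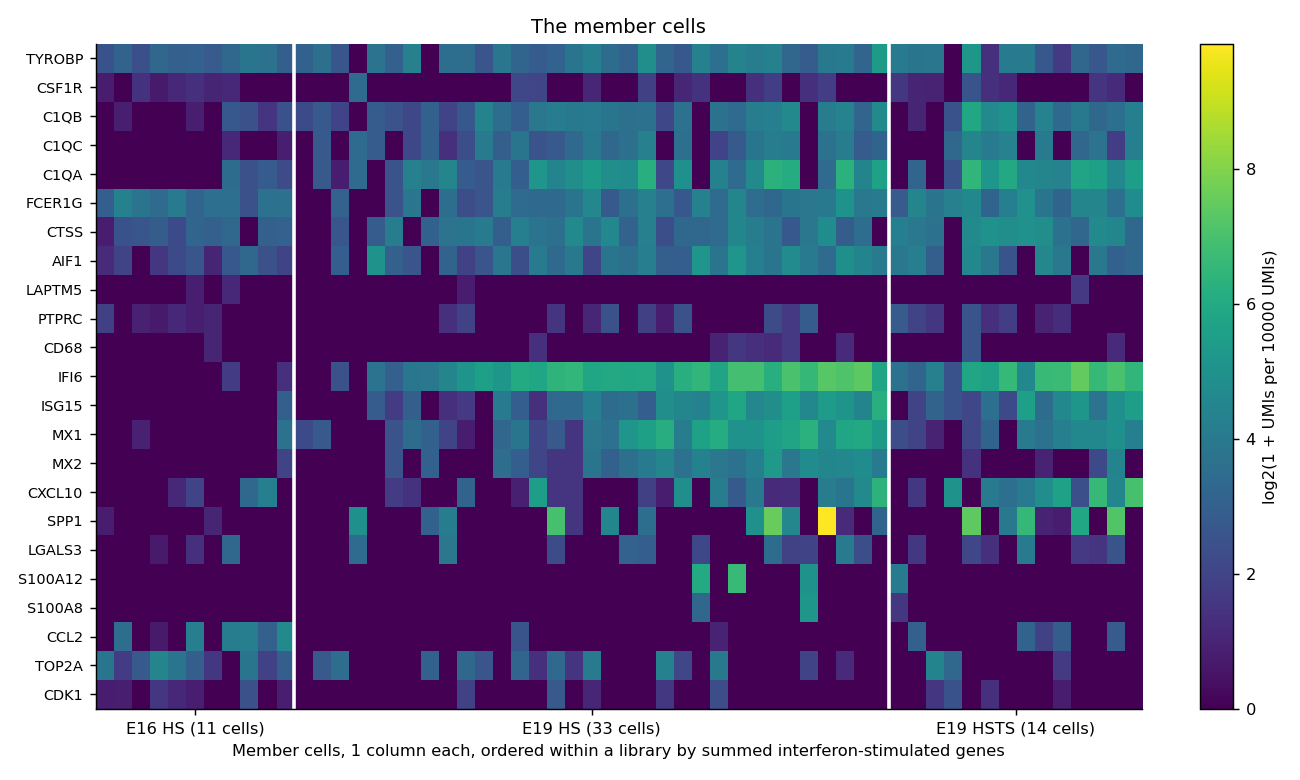
Level of 23 genes (rows) in the 58 members (columns), as log2 of 1 plus UMIs per 10000 UMIs, by library and ordered within each library by summed interferon-stimulated genes. *IFI6* is at 0 in 9 of 11 E16 HS members and present in 30 of 33 E19 HS and all 14 E19 HSTS members, while *FCER1G* is present across the libraries.

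Clustered by their own profiles, the members fell into 2 groups that were unevenly shared between the libraries. The first held 30 cells, 7 from E19 HSTS, 22 from E19 HS and 1 from E16 HS, and was led by *SPP1*, the iron exporter *SLC40A1*, the phospholipid transfer protein *PLTP*, *AQP8* and *GNG11*. The second held 28 cells, 7 from E19 HSTS, 11 from E19 HS and 10 from E16 HS, and was led by the cyclin *CCNA2*, the glucose transporter *SLC2A3*, the kinesin *KIF22* and the histone genes *HIST2H2AC* and *H1-5*. The median of summed interferon-stimulated genes was 186 UMIs per 10000 in the first group and 36.4 in the second, and that of G2 and M phase genes was 1.63 and 17.2. *C1QA* was detected in 29 of 30 and 16 of 28 cells. Of the cells compared by day, 10 of 11 from E16 HS thus lay in the second group and 22 of 33 from E19 HS in the first. These groups rest on the same genes, are of few cells and differ in median depth, with 5932 and 9802 UMIs, so they are given as a description and were not named.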

How the data were processed

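Single cells of 3 whole-embryo libraries were sequenced by the authors with a droplet 3′ kit, and Cell Ranger 6.1.2 made the deposited filtered matrices, which hold UMI counts per gene and barcode (113213654 UMIs in the kept cells of E16 HS, 88733467 for E19 HS and 99580051 for E19 HSTS). Members and gene lists were chosen with earlier results of these data known. Counts were summed per library over members and over the other kept cells, and scaled by total UMIs to CPM. Ratios have exact conditional intervals, levels exact Poisson intervals and shares exact binomial ones, each at 95%, for counting error only. A sum of 0 was set to a floor of 3 counts. Genes needed a mean of 20 CPM. A call between members and other cells needed over 4-fold in the same direction in each library, and a call between libraries over 2-fold with an interval not holding 1. Genes named for a comparison were those with at least 50 UMIs, ranked by their lowest ratio over the libraries or by their fold. Scrublet (scanpy 1.11.5) marked 198 kept cells as doublets in E16 HS, 193 in E19 HSTS and 0 in E19 HS, where it did not work, and 0 members. Doublets were not removed. TMM scaling (edgeR 4.0.16) was an alternative. Erythroid cells were those with at least 5 *AHSP* and 2 *ALAS2* UMIs. Of 381 list symbols outside the interferon lists, 56 were not in the table. Of the 50 interferon-stimulated genes 34 were in the table, and of the 6 genes for interferon receptors and kinases 6 were. Summing, ratios and calls were tested on simulated data.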

Additional observations from a re-analysis of the deposited data

Results flagged for a closer look

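Among the genes named for the library comparisons and *C1QA*, 3 were called in members and differed more than 2-fold the other way in the other cells. In these the members and the other cells of the same libraries moved in opposite directions, and the difference between them was not tested, since each condition has 1 library. *SPP1* was 195-fold lower in E16 HS than in E19 HS members and 3.61-fold higher in E16 HS in the other cells. *C1QA* was 13.9-fold lower in E16 HS members and 2.14-fold higher there in the other cells. *AQP8* was 14.5-fold lower in E19 HSTS than in E19 HS members and 7.70-fold higher in E19 HSTS in the other cells.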

How the results depend on the processing

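No paired analysis was possible because each condition has 1 library. *IFI6*, *MX1*, *C1QA*, *SPP1*, *CCL2*, *S100A4*, *MX2* and *CXCL10* kept the direction of their difference between libraries under every alternative run. The summed interferon-stimulated genes of E19 HSTS over E19 HS (0.826 to 1.25) and *FCER1G* of E19 HS over E16 HS (0.822 to 1.22), neither of them called, fell on both sides of 1, and higher calls were the majority in E16 HS against E19 HS (247 to 179) but lower calls were with TMM scaling (143 to 254). Requiring 3 rule genes left 37 members (0.117% of kept cells, 0.0265% in E16 HS), 21 genes lower in members and 64 lower in E16 HS than in E19 HS. Requiring 2 UMIs of a rule gene left 0.127% (0.0441% in E16 HS) and 90 genes lower in E16 HS. Thinning to 3000 UMIs left 0.126% (0.0300% in E16 HS), 3 genes lower in members, 52 higher and 27 lower in E16 HS, and 38 higher and 45 lower in E19 HSTS than in E19 HS. At least 2 of *TYROBP*, *FCER1G*, *AIF1* and *CTSS*, chosen after seeing the data, gave 0.260% in E19 HSTS, 0.499% in E19 HS, 0.238% in E16 HS and 0.333% in all, and 192 genes higher in E19 HSTS. Genes higher in members numbered 93 with a mean of 40 CPM required and 266 with no filter. With TMM scaling 63 genes were lower in members and 143 higher in E16 HS. A 2-fold limit gave 284 genes higher and 104 lower in members, and an 8-fold limit 18 lower. A 4-fold limit between libraries gave 75 higher and 105 lower in E16 HS, and 34 higher and 35 lower in E19 HSTS. Leaving out 1 library at a time gave 150 to 275 genes higher in members, with 275 without E16 HS, and 44 to 72 lower, with 72 without E19 HSTS. With 11 to 33 members a library, 1 UMI is worth 4.70 to 10.8 CPM, which limits what low genes can show.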
